A study of Mus musculus with 2 samples.

Results

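The miR-378 family was examined as 4 microRNA genes, Mir378a, Mir378b, Mir378c and Mir378d, taken by their GENCODE M21 symbols and matched by Ensembl identifier among the 2202 genes counted in each table. All 4 were found, and all 4 had counts in both libraries. The series is microRNA sequencing of inserts under 30 nt from gastrocnemius, a calf muscle. It holds 2 libraries of 1 group, biological replicates 1 and 2, from male B6CASTF1/J mice of 2 months, hybrids of the strains C57BL/6J and CAST/EiJ. The labels name no treatment, mutation or transgene and no second condition, so the data show levels and how far the libraries differed, and no test between conditions was possible.

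MicroRNAs are short RNAs cut from hairpin precursors, and a loaded microRNA recognises messenger RNAs mainly through its seed, bases 2 to 8 of the mature strand. Mir378a lies in an intron of Ppargc1b, which encodes PGC-1β, a coactivator of genes of mitochondrial biogenesis and fatty acid oxidation. In mice the Mir378a locus is known for its part in mitochondrial energy use and body fat, and in cultured myoblasts miR-378 is known to favour differentiation. The other 3 genes are later-annotated relatives with similar mature sequences.

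Of the 4 genes, 3 had an entry among the RefSeq microRNA sequences of build GRCm38.p6, the assembly of mm10: Mir378b, Mir378c and Mir378d. Their mature sequences are shown because the family is defined by them and because reads can be assigned to a gene only where they differ. Capitals mark the seed.
miR-378b: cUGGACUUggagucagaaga
miR-378c: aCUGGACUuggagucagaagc
miR-378d: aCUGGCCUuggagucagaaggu
The 3 seeds differed from each other. Counted from 1 at the 5′ end, with the base of the first-named microRNA first, miR-378c and miR-378d differed by A6C and C21G over 21 aligned bases, and A6C falls in the seed. miR-378b begins 1 base later than miR-378c. Over their 20 shared positions the pair differed by A20C alone, counted along miR-378b, so the shift of the start, not a substitution, sets their seeds apart. Between miR-378b and miR-378d the differences were A5C and A20G. Each of the 3 seeds was found once among the 1738 mature sequences of the table, which hold none of Mir378a.

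The hairpins place these mature sequences on different arms, shown here with the mature part in capitals.
Mir378b: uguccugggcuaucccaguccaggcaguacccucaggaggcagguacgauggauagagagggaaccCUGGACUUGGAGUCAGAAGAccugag
Mir378c: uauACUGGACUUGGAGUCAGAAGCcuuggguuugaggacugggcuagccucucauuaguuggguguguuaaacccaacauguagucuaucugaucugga
Mir378d: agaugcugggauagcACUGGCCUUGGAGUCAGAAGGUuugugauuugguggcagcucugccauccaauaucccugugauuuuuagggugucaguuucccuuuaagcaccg
The mature part of Mir378b spans positions 67 to 86 of a hairpin of 92 bases, on the 3′ arm. That of Mir378c spans positions 4 to 24 of 99 bases and that of Mir378d positions 16 to 37 of 110 bases, both on the 5′ arm. Similar as the mature sequences are, the precursors around them differ. The minimum free energy predicted by RNAfold was -0.338 kcal/mol per base for Mir378b, -0.273 for Mir378c and -0.318 for Mir378d, against a median of -0.406 over 1005 RefSeq mouse hairpins. Hairpins at least as stable per base made up 75.9% of the 1005 for Mir378b, 93.2% for Mir378c and 83.0% for Mir378d, so all 3 lay on the weaker side. In the predicted folds 15 of the 20 mature bases were paired in Mir378b, 15 of 21 in Mir378c and 13 of 22 in Mir378d.

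In mm10 with GENCODE M21, Mir378a (ENSMUSG00000105200.1) lies on chromosome 18 from 61397835 to 61397900, minus strand. It sits in intron 1 of all 3 Ppargc1b transcripts that span it, on the same strand, 2500 to 2531 bases after the transcript start and 2389 bases from the first exon. None of the other members lies inside a protein-coding gene on its own strand. Mir378b (ENSMUSG00000092985.1), on chromosome 11 from 88352773 to 88352864, plus strand, lies opposite to intron 11 of Msi2, which encodes an RNA-binding protein of the Musashi family. Mir378c (ENSMUSG00000099036.1), on chromosome 14 from 46954830 to 46954928, minus strand, lies opposite to an intron of 131260 bases in Samd4, which encodes an RNA-binding repressor of translation. Mir378d (ENSMUSG00000098756.1), on chromosome 10 from 126710282 to 126710391, minus strand, overlaps no other annotated gene. The nearest to it is Gm47966, a long non-coding RNA gene on the same strand, 3614 bases away. Ppargc1b, Msi2 and Samd4 messenger RNAs are not measured in these tables, so host and microRNA could not be compared.

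**Figure D1:**
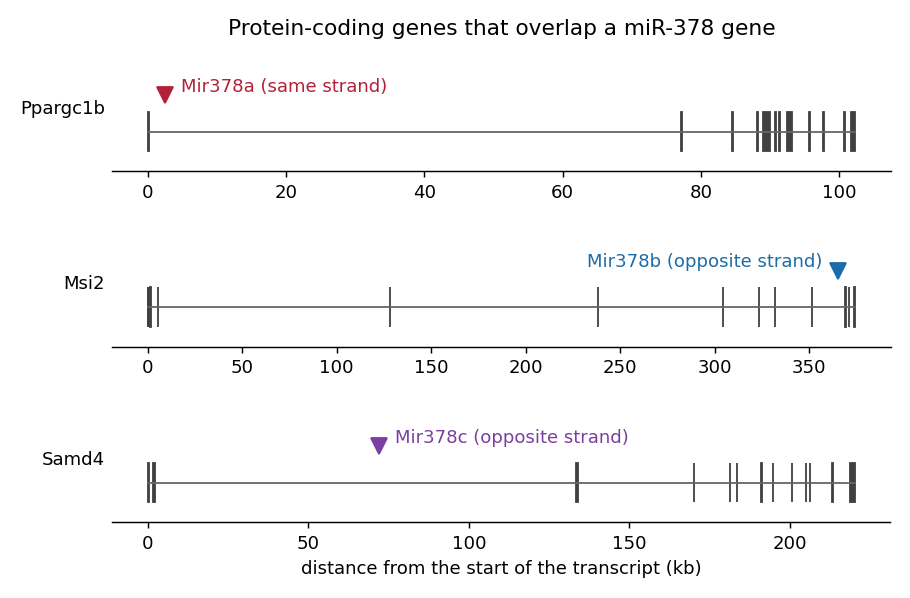
Exons (dark blocks) of Ppargc1b, Msi2 and Samd4 along the distance from the transcript start in kb, 1 transcript each, with a triangle at the microRNA gene. Mir378a sits in intron 1 of Ppargc1b on the same strand, while Mir378b and Mir378c lie on the strand opposite to Msi2 and Samd4.

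The libraries held 638779 counts over microRNA genes in replicate 1 and 2272132 in replicate 2, or 17.2% and 16.1% of all reads. Levels are raw counts on the strand of the gene per 1000000 such counts (CPM). They are not divided by hairpin length, because a read of a mature microRNA covers 1 short product whatever the length of its precursor. Reads matching several places made up 75.2% and 74.4% of the reads and are in no gene's count. Exact Clopper-Pearson 95% intervals cover counting error only, because they treat each read as independent. PCR copies of 1 molecule cannot be recognised, so the intervals can be too narrow even for counting error. Among the muscle markers, the level of Mir206 was 20325 CPM (replicate 1) and 48078 CPM (replicate 2), and all 9 of the skeletal muscle list reached 2 CPM in both libraries. Of the 6 neural markers 5 had no count, and the liver marker Mir122 had 15.7 and 29.9 CPM.

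Among reads assigned to a single gene, Mir378a was the most abundant microRNA gene in both libraries. Its place among all reads is unknown, since genes with several copies, such as those of miR-1 and miR-133, lose the reads that match more than 1 of them. It had 119624 counts in replicate 1, which is 187270.0 CPM or 18.7% of counts (95% interval 18.6 to 18.8%). In replicate 2 it had 317258 counts, which is 139630.0 CPM or 14.0% (13.9 to 14.0%). Replicate 1 was the higher of the libraries, and the intervals did not overlap. The mean was 163450.0 ± 33686 CPM (SD, n = 2). In replicate 1 it was followed by Mir143, a microRNA of smooth muscle, and the level of Mir378a was 1.56 times as high. In replicate 2 the next gene was Mir126a, a microRNA of endothelium, and Mir378a was 1.08 times as high. The level of Mir126a, second by mean CPM, was 81286 CPM (replicate 1) and 129798 CPM (replicate 2), both under the lower Mir378a value, although the ranges of mean ± SD overlapped. Relative to the median of the 303 genes that reached 2 CPM in both libraries, the level of Mir378a was 2028 times as high in replicate 1 and 1602 times in replicate 2.

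Mir378d, the second member, had 68 counts in replicate 1 and 227 in replicate 2. These are 106 CPM (82.7 to 135) and 99.9 CPM (87.3 to 114), with a mean of 103 ± 4.63 CPM (SD, n = 2) and rank 146 of 2202. The intervals of the libraries overlapped over most of their width. Mir378c had 29 and 124 counts, or 45.4 CPM (30.4 to 65.2) in replicate 1 and 54.6 CPM (45.4 to 65.1) in replicate 2, with a mean of 49.99 ± 6.49 CPM and rank 176. Mir378b was the lowest, with 11 and 43 counts, or 17.2 CPM (8.60 to 30.8) and 18.9 CPM (13.7 to 25.5), a mean of 18.1 ± 1.21 CPM and rank 219. All 3 were therefore above the limit that a count of 0 allows, 4.70 CPM in replicate 1 and 1.32 CPM in replicate 2. Mir378d and Mir378c stood above and below the median of detected genes, which was 92.4 CPM in replicate 1 and 87.1 in replicate 2.

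**Figure D2:**
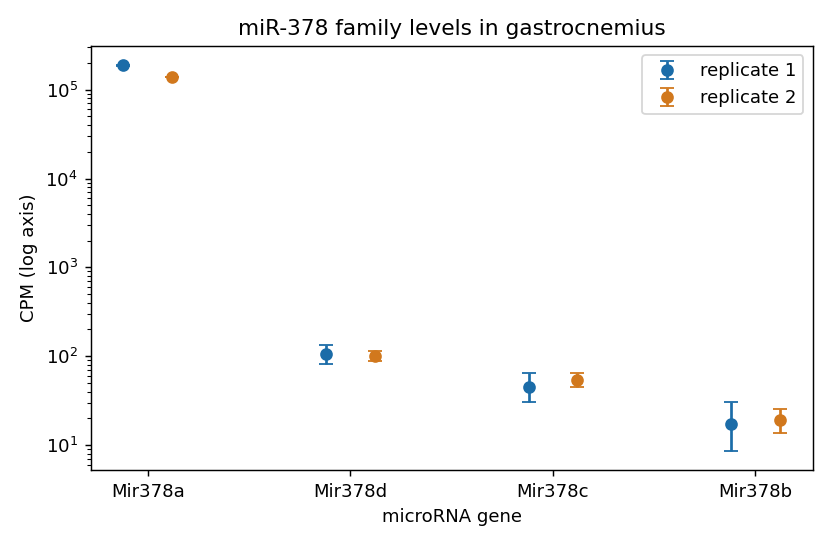
CPM on a log axis of the 4 miR-378 genes in replicates 1 and 2, with exact 95% counting intervals as bars. Mir378a lies at 187270.0 and 139630.0 CPM, and Mir378d, Mir378c and Mir378b lie between 17.2 and 106 CPM in the same order in both libraries.

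The order of the members was the same in both libraries. Mir378d had 2.34 times the counts of Mir378c in replicate 1 (1.498 to 3.76) and 1.83 times in replicate 2 (1.46 to 2.30). Mir378c had 2.64 times the counts of Mir378b in replicate 1 (1.28 to 5.85) and 2.88 times in replicate 2 (2.02 to 4.18). Each step was larger than counting error in each library, which does not cover reads assigned to the wrong member. The step to Mir378a was of another size. It had 1759 times the counts of Mir378d in replicate 1 and 1398 times in replicate 2. Mir378a thus gave 99.9% of the family's counts in each library, and the 3 minor genes together gave 0.0902% (0.0740 to 0.109%) in replicate 1 and 0.124% (0.112 to 0.137%) in replicate 2.

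The genes next to the minor members in the order of mean CPM, chosen for their nearness, place these levels. Mir664, at 107 ± 10.2 CPM, and Mir467e, at 98.1 ± 28.1 CPM, stood above and below Mir378d (SD, n = 2 each). Around Mir378c stood Mir503, at 50.04 ± 2.30 CPM, and Mir224, at 48.0 ± 8.08 CPM. Around Mir378b stood Mir677, at 18.3 ± 1.52 CPM, and Mir29b-1, of the miR-29 family, at 17.9 ± 0.894 CPM.

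**Figure D3:**
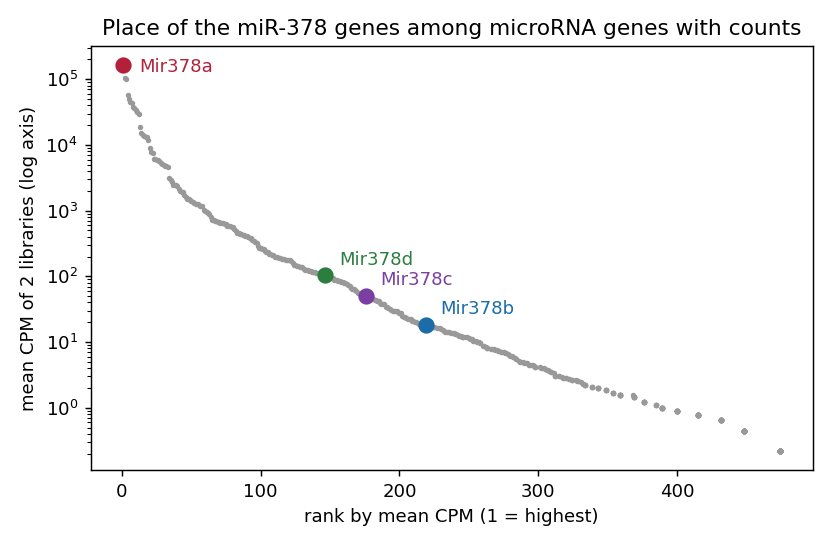
Mean CPM of 2 libraries on a log axis against rank, for microRNA genes with at least 1 count. Mir378a is at rank 1, and Mir378d, Mir378c and Mir378b are at ranks 146, 176 and 219 of 549 genes with counts.

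Between the libraries Mir378a differed and the minor genes did not differ beyond counting error. The ratio of CPM, replicate 1 over replicate 2, was 1.34 for Mir378a (95% counting interval 1.33 to 1.35), 1.07 for Mir378d (0.800 to 1.40), 0.832 for Mir378c (0.535 to 1.25) and 0.910 for Mir378b (0.423 to 1.79). The interval left out 1 for 1 of the 4 members, Mir378a, where it did so for 44.4% of the 311 genes that had at least 10 counts in all, 19.6% being higher and 24.8% lower in replicate 1. At 1.5-fold or more, 0 of the 4 members differed in either direction, against 34.1% of the 311 genes. The intervals of the minor genes are wide, and a difference of the size seen for Mir378a lies inside those of Mir378d and Mir378b. With 1 library per biological replicate these ratios have no replicate check and compare these libraries only.

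Ratios as large as that of Mir378a were seen for many other genes, but for a smaller share of the abundant ones. A log2 ratio as far from 0 as its 0.42, in either direction, was seen for 144 of the 311 genes, for 50 of the 146 with a mean of 100 CPM or more and for 6 of the 19 with a mean of 10000 CPM or more, Mir378a included. The median absolute log2 ratio of those 19 was 0.21, and 3 of them, Mir378a included, reached its ratio in the same direction. Among genes with a mean of 100 CPM or more, the 3 with the log2 ratio nearest to that of Mir378a were Mir615 (0.43), which lies in the Hoxc cluster, Mir451a (0.41), a microRNA of red blood cells, and Mir15a (0.44). This likeness rests on 1 ratio over 2 libraries.

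**Figure D4:**
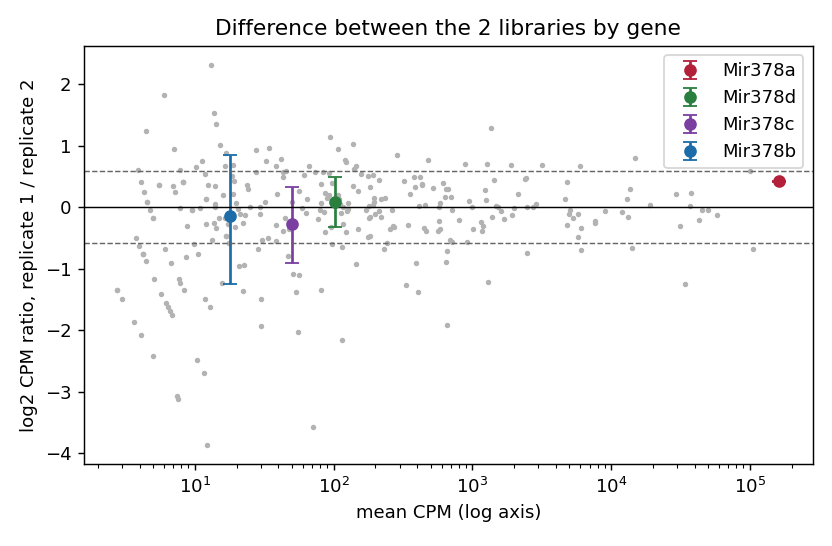
Log2 CPM ratio, replicate 1 over replicate 2, against mean CPM on a log axis for 305 of the 311 genes with at least 10 counts (6 had no count in 1 library); dashed lines mark 1.5-fold and bars are 95% counting intervals. Mir378a lies at 0.42, and the intervals of Mir378d, Mir378c and Mir378b include 0.

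Marker lists of cell types were also compared between the libraries. Summed CPM in replicate 1 and replicate 2 was 22884 and 52158 for skeletal muscle (9 of 9 detected). Mir206 gave most of that sum. Of the 9 skeletal muscle genes, 2 were 1.5-fold or more higher in replicate 1, Mir133b (1.84) and Mir133a-2 (1.94). Both had few counts in replicates 1 and 2, Mir133b 14 and 27 and Mir133a-2 6 and 11, and neither exceeded counting error. Another 2 were lower, Mir206 (0.423) and Mir499 (0.431). Over the 311 genes with at least 10 counts, 12.2% were higher and 21.9% lower. The median log2 ratio of the 9 was -0.04, beside -0.05 over the 311 genes. The counting interval left out 1 for 0 of the 9 in the higher and 4 in the lower direction. Over the 311 genes it did so for 19.6% and 24.8%. The sum was 81286 and 129798 for endothelium (1 of 2 detected, Mir126b at 0 and 1 counts). For smooth muscle, led by Mir143, it was 123068 and 81451 (2 of 2). For fibroblasts it was 19699 and 11795 (4 of 5, with Mir199a-1 at 0), most of it from Mir21a. Among these 4, the ratio was 1.75 for Mir21a and 1.95 for Mir199b, but 0.674 for Mir214 and 0.323 for Mir199a-2. For red cells it was 6176 and 4688 (2 of 2), for leukocytes 2542 and 2889 (4 of 4) and for adipocytes 1916 and 2229 (5 of 6). Mir196a-2 gave 1586 and 1816 CPM of the adipocyte sum. It lies on chromosome 15 near Mir615 of the Hoxc cluster, so this sum need not reflect adipocytes. Both smooth muscle genes and both red cell genes were, like Mir378a, higher in replicate 1, with counting intervals that left out 1. Such higher intervals were seen for 19.6% of the 311 genes. Mir143 and Mir145a lie near each other on chromosome 18, as do Mir451a and Mir144 on chromosome 11. Each pair is thus not 2 independent markers. The skeletal muscle and fibroblast sums followed Mir206 and Mir21a. The other detected fibroblast genes went both ways. Beyond counting error, 4 skeletal muscle genes were lower and 0 higher. Beyond counting error, 1 of the 4 leukocyte genes was higher and 2 were lower. Of the 5 adipocyte genes with at least 10 counts, 0 were higher and 2 lower. The part of cell composition in the Mir378a ratio was not tested. In whole tissue, fewer cells of a type and less RNA per cell cannot be told apart.

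Counted against Mir378a itself, which needs no library total, the minor genes were fewer in replicate 1. Per 100000 Mir378a counts there were 56.8 Mir378d counts in replicate 1 (44.1 to 72.1) and 71.6 in replicate 2 (62.5 to 81.5). For Mir378c there were 24.2 (16.2 to 34.8) and 39.1 (32.5 to 46.6). For Mir378b there were 9.20 (4.59 to 16.5) and 13.6 (9.81 to 18.3). The intervals of each gene overlapped between the libraries, although the ratio for Mir378c, 0.620 (0.399 to 0.935), left out 1. The sum of the 3 was 90.3 in replicate 1 (74.1 to 109) and 124 in replicate 2 (112 to 137), a ratio of 0.727 (0.582 to 0.902), and these intervals did not overlap. In CPM the same sum was 169 in replicate 1 and 173 in replicate 2, a ratio of 0.975 (0.781 to 1.21). The share of the minor genes relative to Mir378a thus differed between these libraries by more than counting error, while their CPM did not. This follows from their CPM ratio of 0.975 and the Mir378a ratio of 1.34, so it is no separate result.

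**Figure D5:**
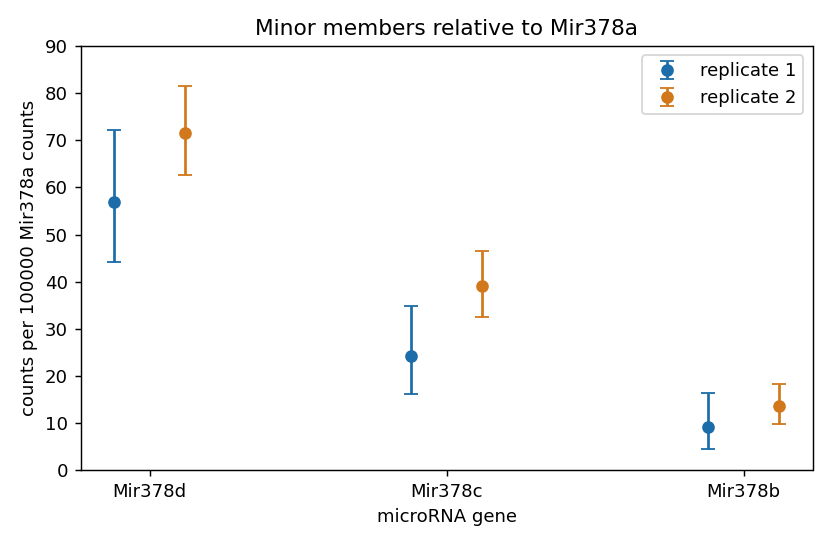
Counts of Mir378d, Mir378c and Mir378b per 100000 Mir378a counts in replicates 1 and 2, with 95% counting intervals as bars and an axis from 0. Replicate 1 lies below replicate 2 for all 3 genes, and the 2 intervals of each gene overlap.

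How far the counts can be told apart depends on length. The longest run of identical bases between Mir378a and another microRNA gene at a different position was 20, shared with Mir378c. Within the family it shared 19 with Mir378b and 15 with Mir378d, and outside it at most 16, with Gm27881. Mir378b and Mir378c shared 19. Of windows of 18 bases, 3 of 49 in Mir378a, 2 of 75 in Mir378b, 3 of 82 in Mir378c and 0 of 93 in Mir378d also occurred in another microRNA gene. At 20 bases this was 1 window each in Mir378a and Mir378c, and at 22 bases none in any member. Reads trimmed to 20 bases or fewer can thus match both Mir378a and Mir378c, and reads with several matches are in no gene's count. The levels of Mir378a, Mir378b and Mir378c are uncertain for this reason, and that of Mir378d less so by this measure. These windows cover exact matches only. Whether Mir378a reads with sequencing errors were counted for the minor genes was not tested. The exact mature sequences of miR-378b, miR-378c and miR-378d were found in no other gene among 141767 GENCODE M21 transcripts, on either strand, and introns and intergenic copies were not searched.

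The strand of the reads decided whether Mir378a was counted. The annotated microRNA gene Gm25301 (ENSMUSG00000093026.1) covers the same position on the plus strand, from 61397813 to 61397925. On its own strand Gm25301 had 0 counts in both libraries. Antisense reads there are thus limited to 3 counts per library, which allows 2.51 per 100000 Mir378a counts in replicate 1 and 0.946 in replicate 2. When strand was ignored Mir378a had 0 counts in both libraries, because all its reads then fell among the ambiguous. Its counts equal 62.4% of the ambiguous reads of replicate 1 and 46.6% of those of replicate 2. The counts of Mir378b, Mir378c and Mir378d were the same with and without strand. Of all genes with counts, 36 overlapped a microRNA gene on the other strand, Mir378a and Mir126a being the most abundant of them.

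Mir378a was also set beside other microRNA genes that lie on the same strand in protein-coding genes. Such genes number 969 of 2202 (44.0%) and held 55.3% of counts in replicate 1 and 55.4% in replicate 2, of which Mir378a gave 33.9% and 25.2%. A list of 19 intronic microRNAs, whose hosts include metabolic genes, muscle genes and others, had 18 genes in the tables, which summed to 61638 CPM in replicate 1 and 71710 in replicate 2. Mir378a alone was 2.45 times as abundant as their mean sum. The 18 are a chosen part of the 969 such genes and held a small part of their counts. This comparison and the ratios below therefore hold for the list only. The list was led by Mir26b in Ctdsp1 (39663 CPM in replicate 1 and 45952 in replicate 2), Mir151 in Ptk2 (5590 and 6052) and Mir149 in Gpc1 (4851 and 6742). Of its 16 genes with 10 or more counts, 0 were 1.5-fold or more higher in replicate 1 and 4 were lower, where over all 311 genes 12.2% were higher and 21.9% lower. Its counting intervals left out 1 for 2 genes higher and 10 lower of the 16, beside 19.6% and 24.8% of the 311. Its median log2 ratio was -0.36, beside -0.05 over the 311 genes and 0.42 for Mir378a. Mir107, Mir103-2, Mir103-1 and Mir33 had mean levels of 128, 4.11, 0.220 and 2.32 CPM. The first 3 lie in Pank genes, which encode pantothenate kinases of coenzyme A synthesis, and Mir33 lies in Srebf2, a regulator of cholesterol synthesis. Reads shared by the near-identical products of the first 3 are missing, so their levels are uncertain.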

How the data were processed

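The authors deposited raw counts per microRNA gene, 1 table per library. The assembly was mm10 and the annotation GENCODE M21, as the accompanying text files state. Aligner, counter and versions: not given in the sources used here. The tables hold 3 count columns without names: read from their totals as unstranded, same strand and opposite strand. The same-strand column was used. The 4 rows that name no gene were left out of every total. In replicates 1 and 2 the unmapped share was 5.97% and 6.93% and the no-feature share 1.62% and 2.48%. The assembly is that of C57BL/6J, and effects of CAST alleles on matching were not analysed here.

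CPM, exact Clopper-Pearson intervals of shares and exact conditional intervals of ratios were computed in Python 3.11.15 with scipy 1.17.1, and tested on simulated data. The simulated counts held counting error only. They do not show how the intervals behave with PCR copies or with differences between mice. edgeR 4.0.16 (TMM) and DESeq2 1.42.0 supplied alternative scaling only. Hairpins were folded with RNAfold 2.7.2. No p-value is given, because the series has 1 group. Whether the replicates differ by mouse or by library preparation cannot be told apart. Members, marker lists and the list of intronic microRNAs were chosen with earlier results of these data known. Named genes are the members, their neighbours in the order of mean CPM, the 3 nearest by log2 ratio, genes sharing sequence or position with a member, and leading list members. Mir107, Mir103-2, Mir103-1, Mir33, Gm27881 and marker genes beyond the leading ones were named after their values were seen.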

Additional observations from a re-analysis of the deposited data

Results flagged for a closer look

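The opposite-strand column, which no comparison above uses, held 119624 counts for Gm25301 in replicate 1 and 317258 in replicate 2, above the limit of 3 counts. These equal the same-strand counts of Mir378a in each library, on whose opposite strand Gm25301 is annotated.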

How the results depend on the processing

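With the unstranded column, the level of Mir378a and its share of the family were 0 and the family level was 245 CPM, since reads of Mir378a then count as ambiguous. Per 1000000 of all reads, the levels were 27399.6 for Mir378a and 27428 for the family. The Mir378a ratio between the libraries was 1.43 per all reads, 1.42 with Mir378a left out of the total and 1.40 with TMM. Over the 6 settings run it stayed above 1, between 1.33 and 1.43, and that of Mir378d lay between 1.06 and 1.14, inside its counting interval. With each library left out, the Mir378a level was 139630.0 and 187270.0 CPM, the family level 139803 and 187439 CPM, and the share of Mir378a in the family 99.9% in both. Division by hairpin length, chosen after seeing the data, gave 99.9323%, a shift larger than the SD of 0.0239. Of the 106 genes at 1.5-fold or more, the count was 45 with a minimum of 100 counts, where 191 genes were tested, and 53 at 2-fold. With 1 or more counts in each library it was 151 of 378, 80 higher and 71 lower in replicate 1, against 38 higher and 68 lower of the 106. No paired analysis was possible because the series has 1 group. Precision is limited by 11 to 68 counts per minor gene in replicate 1, and by the reads with several matches, whose number per gene is unknown.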
